A study of Homo sapiens with 12 samples.

Results

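The 10 genes described here, called the neuronal microtubule genes, were followed by name across the 6 groups of the study: MAP2, TUBB3, DCX, MAPT, MAP1B, STMN2, TUBB2A, TUBB2B, TUBB4A and SEPTIN3. They were chosen as genes whose proteins build, bind or sit beside the microtubules of neurons, and they are 10 of the 58302 genes in the count tables. RNA was sequenced from 12 samples, 2 in each group, all derived from H1, an established human embryonic stem cell line. WT cells kept both H3K27 demethylases, and dKO cells carried deletions of the catalytic domain of UTX (KDM6A) and of JMJD3 (KDM6B), made one after the other in H1 with selection of clones. Each genotype was sampled as neural progenitor cells (NPCs) grown with bFGF and EGF at passage 2 and at passage 4, and as the cells obtained from passage 2 NPCs after 28 days with GDNF, BDNF and cAMP in place of those growth factors (WT-D28 and dKO-D28). The labels name passage 4 and day 28 and give no passage for the other NPCs, which are passage 2 in the study's text. Nothing in the labels says that the 2 samples of a group were separate cultures, so the p-values measure only the spread between these samples, and no batch is given, so a batch and a group cannot be told apart.

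Microtubules are hollow polymers of alpha- and beta-tubulin, and a neuron fills its axon and dendrites with them to hold their shape and to carry cargo. Which beta-tubulin is used, and which associated proteins sit on the lattice, differs between dividing progenitors, migrating young neurons and mature neurons, and several of the genes followed here are standard markers of neuronal differentiation. Among them, TUBB3, TUBB2A, TUBB2B and TUBB4A are beta-tubulins of the nervous system. MAP2 is the microtubule-associated protein of dendrites, MAP1B that of growing axons and MAPT (tau) that of mature axons, DCX (doublecortin) binds microtubules in migrating neurons, STMN2 (SCG10) destabilizes them in growth cones, and SEPTIN3 is a neuronal septin of the presynaptic terminal.

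Total counts were lowest in the passage 2 NPCs, from 756942 to 1438807 per sample, and lay between 3174410 and 10601172 elsewhere. A count of 3, taken here as the floor of detection, corresponds to between 0.302 and 3.92 CPM (counts per 1e6, scaled by TMM library sizes), which covers counting error only. The sequenced genes matched the labelled cell types in part. The progenitor markers PAX6, SOX2 and NES stood at 178, 364 and 1399 CPM or more in every passage 2 NPC sample. At day 28 the progenitor markers did not move one way. PAX6 fell to 11.9 and 11.7 CPM in WT-D28 and stood at 189.6 and 356 CPM in dKO-D28, whereas SOX2 stood at 412 and 409 CPM in WT-D28 and at 358 and 290.1 CPM in dKO-D28. NES stood below its passage 2 levels in both genotypes, at 922 and 942 CPM in WT-D28 and at 620.3 and 618 CPM in dKO-D28. In dKO its log2 fold change against dKO NPCs was -1.51 (edgeR adjusted p = 1.31e-07). Of 9 tested progenitor markers, 3 were higher and 1 lower in dKO-D28 than in WT-D28, with a median of -0.18, and their summed levels overlapped, from 4582 to 5268 CPM in dKO-D28 and from 4811 to 4873 CPM in WT-D28. By the same calls, defined below, 12.4% of all genes tested were higher and 11.7% lower. Whole-gene counts did not check the knock-out, because only the catalytic domain was deleted: KDM6A lay between 38.9 and 61.4 CPM and KDM6B between 155 and 184 CPM in the passage 2 NPCs of either genotype. The 2 dKO-D28 samples stood apart from each other. Chi-square per degree of freedom between their counts was 14.1, against 1.57 to 3.31 in the other groups. Among the microtubule genes, dKO-D28 sample 1 exceeded sample 2 in all 9 measured, by 1.15-fold (SEPTIN3) to 2.7-fold (TUBB3).

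Of the 10 genes, 9 passed the filter of a mean of 20 counts over the samples and were tested with edgeR's quasi-likelihood test among 13454 genes. Calls follow the study's thresholds, more than a 2-fold change with a p under 0.05 before adjustment. The adjusted p-values printed are those of Benjamini and Hochberg over all 13454 genes. MAPT failed the filter with 3 counts in total, 2 in WT-D28 sample 2 and 1 in passage 4 WT sample 2. MAPT (ENSG00000186868, chromosome 17, 45894527 to 46028334, plus strand of hg38) lies in a run of 15 neighbouring protein-coding genes that were all below the filter, with at most 12 counts each and 6 at 0. Of all 19708 protein-coding genes, 60% passed that filter. Its count therefore says nothing of tau expression in these cells, and the cause of the empty run was not tested.

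The beta-tubulins carry limits of counting that apply to each value below. TUBB3 (ENSG00000258947, chromosome 16, 89921392 to 89938761) shares 92.8% of the bases of its canonical transcript with exons of a readthrough gene on the same strand, ENSG00000198211, which had 0 counts in every sample. TUBB2A (ENSG00000137267, chromosome 6, 3153497 to 3157544) and TUBB2B (ENSG00000137285, chromosome 6, 3223324 to 3231730) are neighbouring near-copies. Of the 50-base words of the TUBB2A transcript, 59.5% also occur in TUBB2B, and 49.8% of those of TUBB2B occur in TUBB2A. How reads in such stretches were assigned was not tested, so the levels of these 3 genes are uncertain. TUBB4A (ENSG00000104833, chromosome 19, 6494319 to 6502848) overlaps antisense lncRNAs over 24.2% of its canonical transcript, and reads of the opposite strand cannot be told apart without the strand setting. The transcripts of MAP2 (ENSG00000078018, chromosome 2, 209424047 to 209734147), MAP1B (ENSG00000131711, chromosome 5, 72107234 to 72209565) and STMN2 (ENSG00000104435, chromosome 8, 79611117 to 79666158) shared no 50-base word with a gene elsewhere and no exon with another gene. For DCX (ENSG00000077279, chromosome X, 111293779 to 111412429) the share of such words was 0.3%, and for SEPTIN3 (ENSG00000100167, chromosome 22, 41969443 to 41998221) 2.2% of the transcript lay in an antisense lncRNA.

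Levels per kilobase, used to set genes beside each other, divide by the summed length of all annotated exons of a gene. On this scale STMN2 was the most abundant of the 9 in WT-D28 at 621 CPM per kb and in passage 4 WT NPCs at 514 CPM per kb. TUBB2B led in passage 2 WT NPCs with 166 CPM per kb, followed by STMN2 with 133 and MAP1B with 92.4 CPM per kb. TUBB3 had the lowest level of the 9 in each group on this scale, from 2.55 CPM per kb in dKO-D28 to 7.15 CPM per kb in WT-D28, with the readthrough overlap above. That rank depends on the length used. The exons of TUBB3 cover 7421 bases against 1706 in its canonical transcript, and those of TUBB4A 3220 against 2277.

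**Figure D1:**
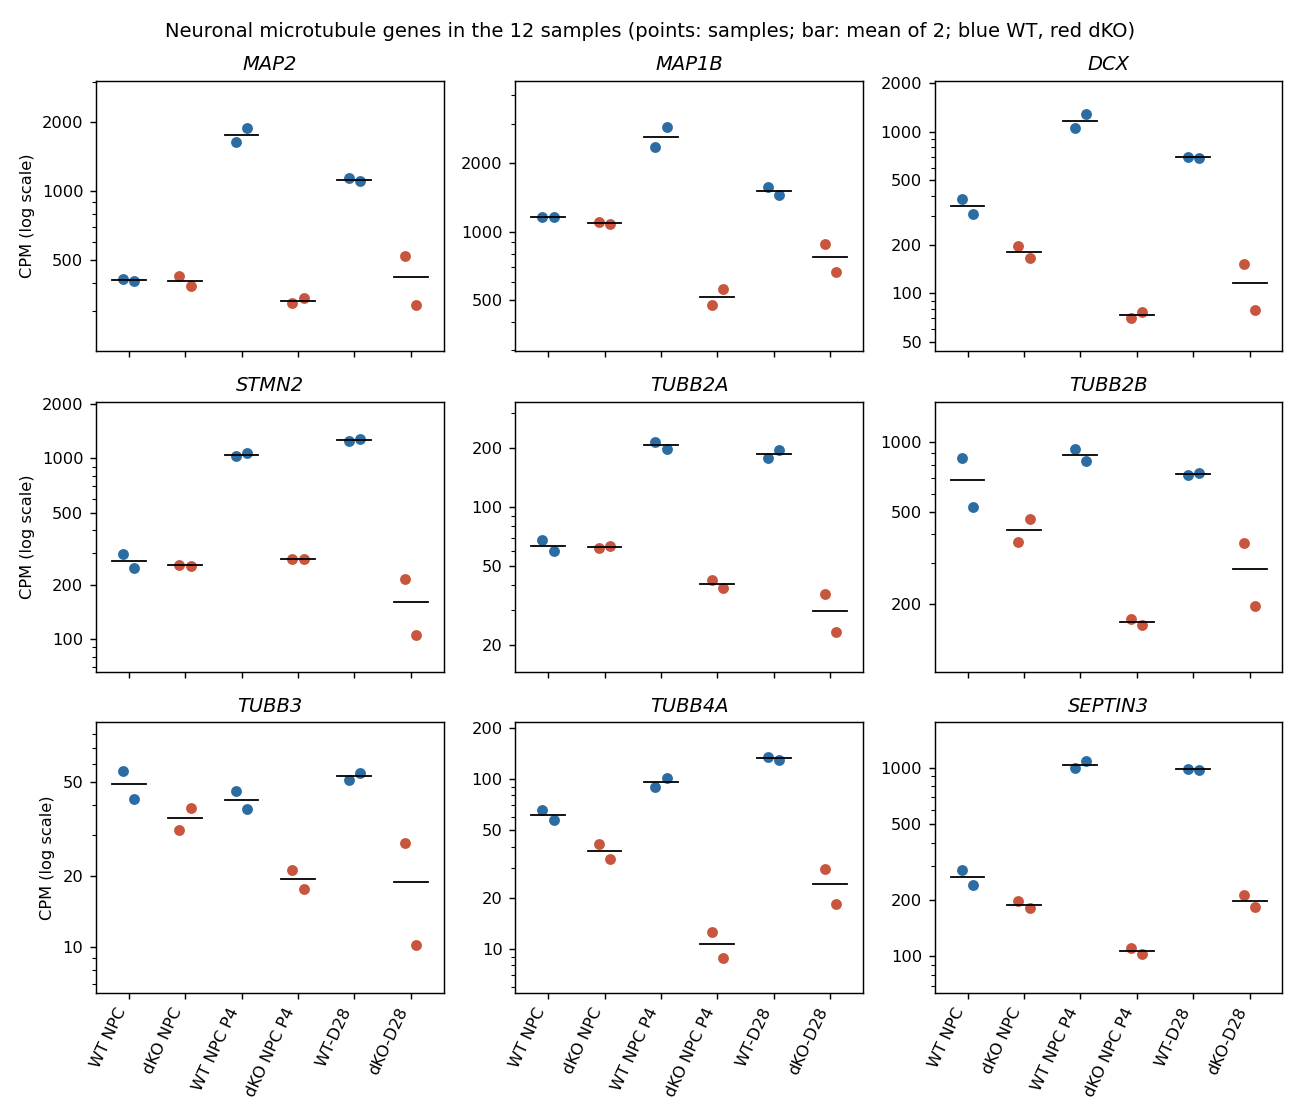
CPM (log scale, scaled by TMM library sizes) of the 9 measured neuronal microtubule genes in the 12 samples. Points are samples, horizontal bars the mean of 2, blue is WT and red dKO. All but TUBB3 and TUBB2B stand higher in passage 4 WT NPCs and in WT-D28 than in all passage 2 NPCs.

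Among the microtubule-associated proteins, MAP2 measured 416 and 405 CPM in passage 2 WT NPCs, 426 and 385 CPM in passage 2 dKO NPCs, 1645 and 1894 CPM in passage 4 WT NPCs, 325 and 341 CPM in passage 4 dKO NPCs, 1141 and 1112 CPM in WT-D28, and 522 and 320.2 CPM in dKO-D28. The 4 WT samples at passage 4 and day 28 lay above all others, and the ranges of dKO-D28 and of passage 2 NPCs of either genotype overlapped. MAP1B measured 1158 and 1159 CPM in passage 2 WT NPCs, 1103 and 1078 CPM in their dKO counterparts, 2353 and 2887 CPM in passage 4 WT NPCs, 474 and 557 CPM in passage 4 dKO NPCs, 1569 and 1453 CPM in WT-D28, and 886 and 663 CPM in dKO-D28. No 2 groups of MAP1B values overlapped, and passage 4 held both the highest group (WT) and the lowest (dKO). DCX measured 384 and 311 CPM in passage 2 WT NPCs, 197 and 165 CPM in passage 2 dKO NPCs, 1057 and 1286 CPM in passage 4 WT NPCs, 69.8 and 76.5 CPM in passage 4 dKO NPCs, 701 and 685 CPM in WT-D28, and 151 and 78.9 CPM in dKO-D28. All 6 WT samples stood above all 6 dKO samples for DCX.

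STMN2 measured 295 and 247 CPM in passage 2 WT NPCs, 258 and 255 CPM in passage 2 dKO NPCs, 1026 and 1073 CPM in passage 4 WT NPCs, 276 and 279 CPM in passage 4 dKO NPCs, 1250.1 and 1287 CPM in WT-D28, and 216 and 105 CPM in dKO-D28. Its 2 high groups were the passage 4 and day 28 WT samples, the other NPC groups lay between 247 and 295 CPM, and dKO-D28 was lowest. SEPTIN3 measured 289 and 239 CPM in passage 2 WT NPCs, 196 and 180.3 CPM in passage 2 dKO NPCs, 992 and 1085 CPM in passage 4 WT NPCs, 111 and 103 CPM in passage 4 dKO NPCs, 985 and 971 CPM in WT-D28, and 212 and 184 CPM in dKO-D28. As with DCX, the WT samples lay above all dKO samples, and SEPTIN3 was the gene on which the 2 dKO-D28 samples differed least.

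Of the 4 beta-tubulins, TUBB2B had the highest level per kilobase in each group. It measured 856 and 524 CPM in passage 2 WT NPCs, 370.1 and 467 CPM in passage 2 dKO NPCs, 937 and 833 CPM in passage 4 WT NPCs, 173 and 162 CPM in passage 4 dKO NPCs, 726 and 741 CPM in WT-D28, and 369 and 196 CPM in dKO-D28. The 2 passage 2 WT samples spanned the level of WT-D28. TUBB2A measured 67.9 and 59.6 CPM in passage 2 WT NPCs, 62.3 and 63.6 CPM in passage 2 dKO NPCs, 215 and 198 CPM in passage 4 WT NPCs, 42.4 and 38.7 CPM in passage 4 dKO NPCs, 179 and 195 CPM in WT-D28, and 36.1 and 23.2 CPM in dKO-D28. At passage 2 the genotypes overlapped, and at passage 4 and day 28 the WT values were separate from and above the dKO values. TUBB4A measured 65.3 and 57.4 CPM in passage 2 WT NPCs, 41.3 and 33.9 CPM in passage 2 dKO NPCs, 89.9 and 101 CPM in passage 4 WT NPCs, 12.6 and 8.83 CPM in passage 4 dKO NPCs, 134 and 129.6 CPM in WT-D28, and 29.6 and 18.3 CPM in dKO-D28. TUBB3 measured 56.1 and 42.5 CPM in passage 2 WT NPCs, 31.5 and 38.9 CPM in passage 2 dKO NPCs, 45.8 and 38.5 CPM in passage 4 WT NPCs, 21.3 and 17.7 CPM in passage 4 dKO NPCs, 51.0 and 55.0 CPM in WT-D28, and 27.6 and 10.2 CPM in dKO-D28. For TUBB3 the passage 2 WT samples overlapped those of passage 4 WT and of WT-D28, while for TUBB4A no 2 groups overlapped.

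The promoters of the 4 beta-tubulins are shown because these paralogs were counted at levels that differed among them and among the groups. RefSeq (GRCh38.p14) gave a promoter for 7 of the 10 genes, MAPT, STMN2 and SEPTIN3 having no entry in the table used. Each run is the 250 bases before a start site, 5′ to 3′ on the gene's strand, without the last few bases where an exon begins. Capitals mark matches on either strand to CANNTG (the E-box), GGGCGG (the GC box), CCAAT (the CCAAT box) or TATAAA (the TATA box), and no marked matches overlap.
TUBB2A, chr6:3157545-3157794, minus strand: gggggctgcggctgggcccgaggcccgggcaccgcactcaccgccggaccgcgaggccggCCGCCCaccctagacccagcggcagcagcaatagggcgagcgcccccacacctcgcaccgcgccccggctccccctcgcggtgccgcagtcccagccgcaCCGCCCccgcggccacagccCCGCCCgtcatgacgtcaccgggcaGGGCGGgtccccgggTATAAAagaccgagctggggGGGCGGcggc
TUBB2B, chr6:3227657-3227903, minus strand: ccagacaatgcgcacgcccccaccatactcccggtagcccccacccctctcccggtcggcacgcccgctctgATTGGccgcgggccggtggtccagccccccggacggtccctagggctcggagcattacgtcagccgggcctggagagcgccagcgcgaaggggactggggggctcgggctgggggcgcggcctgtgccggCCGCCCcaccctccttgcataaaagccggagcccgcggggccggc
TUBB3, chr16:89923092-89923337, plus strand: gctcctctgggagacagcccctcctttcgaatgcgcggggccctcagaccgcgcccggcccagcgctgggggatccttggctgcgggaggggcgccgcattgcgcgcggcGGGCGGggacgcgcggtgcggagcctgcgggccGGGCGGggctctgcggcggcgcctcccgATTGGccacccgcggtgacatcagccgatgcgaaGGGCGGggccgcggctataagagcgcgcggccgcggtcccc
TUBB4A, chr19:6502849-6503098, minus strand: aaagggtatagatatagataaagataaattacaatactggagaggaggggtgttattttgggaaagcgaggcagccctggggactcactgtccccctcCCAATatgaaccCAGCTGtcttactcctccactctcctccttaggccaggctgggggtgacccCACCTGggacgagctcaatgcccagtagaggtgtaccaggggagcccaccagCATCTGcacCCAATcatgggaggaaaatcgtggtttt
Values here are for the full 250 bases, including the last few not printed for TUBB2B and TUBB3. The windows of TUBB2A, TUBB2B and TUBB3 were rich in G and C, with 79.2%, 75.2% and 78.0% G or C and 33, 28 and 39 CpG dinucleotides, against medians of 58.0% and 11 over 27305 promoters. They held 5, 1 and 3 GC boxes, a motif present in 42.3% of all promoters. CCAAT, present in 33% of promoters, occurred once in TUBB2B and once in TUBB3, and TATAAA, present in 11.1%, once in TUBB2A. The TUBB4A window was different, with 52.8% G or C, 3 CpG dinucleotides, no GC box, 2 CCAAT boxes and 3 matches to CANNTG, which 62.2% of promoters hold. Further start sites were not printed because upstream bases lie in an exon, 29 for TUBB4A and 74 for TUBB3. That of TUBB4A had 74.8% G or C, 18 CpG dinucleotides and 3 GC boxes, and that of TUBB3 had 65.6% G or C, 9 CpG dinucleotides and no GC box, so the order of the 2 genes turns with the start site. These matches describe the letters of these windows only, and binding was not measured in the counts.

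Differentiation of WT NPCs raised 6 of the 9 measured genes, and none fell. By comparison, 12.9% of the 13454 genes were called higher and 11.5% lower in WT-D28 than in WT NPCs. The median log2 fold change over the 9 was 1.12, against 0.038 over all genes. In these bulk samples, more cells of a type and more RNA per cell cannot be told apart. The destabilizer STMN2 changed most, by 2.23 ± 0.28 on the log2 scale (fitted SE, edgeR adjusted p = 0.000213). It was followed by SEPTIN3 at 1.90 ± 0.12 (edgeR adjusted p = 6.31e-09), TUBB2A at 1.57 ± 0.17 (edgeR adjusted p = 2.49e-06), MAP2 at 1.46 ± 0.18 (edgeR adjusted p = 2.87e-05), TUBB4A at 1.12 ± 0.20 (edgeR adjusted p = 0.00025) and DCX at 1.01 ± 0.26 (edgeR adjusted p = 0.0112). MAP1B differed by 0.38 ± 0.14 and stayed under the fold threshold, and TUBB3 and TUBB2B differed by 0.14 ± 0.35 and 0.10 ± 0.32. The call of DCX rests on the fold threshold: it was 0.99 with DESeq2, 0.99 without WT-D28 sample 1 and 0.85 without passage 2 WT sample 2. A correction for GC content and length took TUBB4A to 0.91.

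The same 28 days raised none of the 9 genes in dKO cells, and TUBB2A fell by 1.10 ± 0.19 on the log2 scale (edgeR adjusted p = 0.00102). Of all genes, 4.01% were called higher and 3.14% lower in dKO-D28 than in dKO NPCs. The median over the 9 was -0.66, against 0.014 over all genes. MAP2 and SEPTIN3 differed by 0.05 ± 0.18 and 0.07 ± 0.12, and the other uncalled genes by -0.49 (MAP1B) to -0.93 (TUBB3). The count of genes called depended on which dKO-D28 sample was used. Without sample 1, 6 of the 9 were called lower: TUBB3 at -1.79, TUBB2A at -1.44, STMN2 at -1.29, DCX at -1.20, TUBB2B at -1.09 and TUBB4A at -1.03. Without sample 2 none was called, and TUBB2A stood at -0.80. No gene was called higher without either sample.

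**Figure D2:**
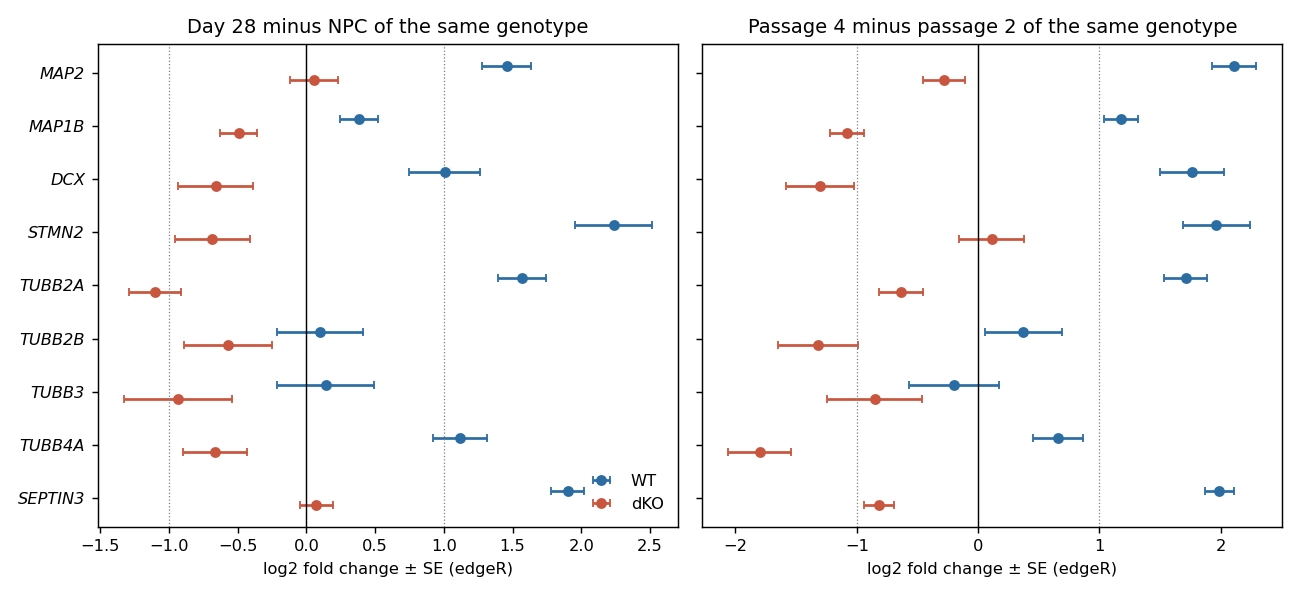
Log2 fold change ± SE (edgeR, 2 samples a group) of the 9 genes within each genotype, day 28 minus passage 2 NPCs on the left and passage 4 minus passage 2 on the right. Blue is WT, red dKO, and dotted lines mark a fold of 2. WT points lie to the right of the dKO points of the same gene in both panels, and in dKO the highest value is 0.07 for differentiation and 0.11 for passage.

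The change with differentiation differed between genotypes in 6 of the 9 genes, tested as the interaction of genotype and differentiation in the same fit, and each of the 6 was less positive in dKO. Of all genes, 11.1% were called lower in this interaction. The difference was -2.92 ± 0.39 for STMN2 (edgeR adjusted p = 0.000595), -2.67 ± 0.26 for TUBB2A (edgeR adjusted p = 1.61e-06), -1.83 ± 0.17 for SEPTIN3 (edgeR adjusted p = 1.06e-06), -1.78 ± 0.31 for TUBB4A (edgeR adjusted p = 0.000362), -1.67 ± 0.38 for DCX (edgeR adjusted p = 0.00971) and -1.40 ± 0.25 for MAP2 (edgeR adjusted p = 0.00104). For MAP1B it was -0.88 ± 0.19, for TUBB3 -1.07 ± 0.53 (edgeR adjusted p = 0.156) and for TUBB2B -0.67 ± 0.45. Without dKO-D28 sample 1 these 3 were also called, at -1.10, -1.94 and -1.21, and STMN2 moved to -3.53, and without passage 2 WT sample 1 TUBB2B was called at -1.06. TUBB3 was also called with DESeq2, at -1.02, and without a filter, at -1.15.

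At day 28, 8 of the 9 genes were lower in dKO than in WT cells, where 11.7% of all genes were called lower and 12.4% higher. The median over the 9 was -2.31, against 0.0026 over all genes, and for each of the 9 both dKO-D28 samples lay below both WT-D28 samples, as was true of 38.8% of all genes. STMN2 had a mean of 161 ± 78.5 CPM (SD, n = 2) in dKO-D28 and 1269 ± 26.3 CPM in WT-D28, a log2 difference of -2.99 ± 0.27 (edgeR adjusted p = 1.78e-05). TUBB2A differed by -2.67 ± 0.16 (edgeR adjusted p = 1.2e-09), DCX by -2.60 ± 0.26 (edgeR adjusted p = 2.78e-05), TUBB4A by -2.48 ± 0.18 (edgeR adjusted p = 1.25e-08) and SEPTIN3 by -2.31 ± 0.12 (edgeR adjusted p = 2.1e-10). The smaller of the called differences were TUBB3 at -1.52 ± 0.32, MAP2 at -1.42 ± 0.17 and TUBB2B at -1.38 ± 0.32, with edgeR adjusted p from 1.46e-05 (MAP2) to 0.00708 (TUBB2B). MAP1B, at -0.97 ± 0.14, fell short of the fold threshold with an edgeR adjusted p of 1.54e-05, and passed it at -1.19 without dKO-D28 sample 1, at -1.02 without WT-D28 sample 2 and at -1.02 after correction for GC content and length. Without dKO-D28 sample 1, STMN2 stood at -3.60 and TUBB3 at -2.38, and without dKO-D28 sample 2, TUBB3 (-0.94) and TUBB2B (-0.99) were no longer called.

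Between passage 2 NPCs of the 2 genotypes none of the 9 genes was called with edgeR or with DESeq2, where 2.59% of all genes were called higher and 1.83% lower in dKO. The median over the 9 was -0.448, against 0.00355 over all genes. At an unadjusted p below 0.05 with no fold threshold, 3 of the 9 were lower in dKO, DCX, TUBB4A and SEPTIN3, where 6.99% of all genes were lower by that rule. MAP2 (-0.02 ± 0.18), STMN2 (-0.07 ± 0.29) and MAP1B (-0.09 ± 0.14) had the small log2 differences, and TUBB2A, at -0.0012 ± 0.21, changed sign with the setting. These values, with their SEs, do not show that the genotypes were alike. The other values were -0.45 ± 0.42 (TUBB3), -0.48 ± 0.13 (SEPTIN3), -0.69 ± 0.25 (TUBB4A), -0.71 ± 0.33 (TUBB2B) and -0.93 ± 0.28 (DCX, edgeR adjusted p = 0.139). DCX was called at -1.09 without passage 2 WT sample 2 and at -1.07 without passage 2 dKO sample 1, and TUBB2B at -1.03 without passage 2 WT sample 2. With 2 samples a group, an exact two-sided permutation test of a single gene cannot give a p below 0.333.

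**Figure D3:**
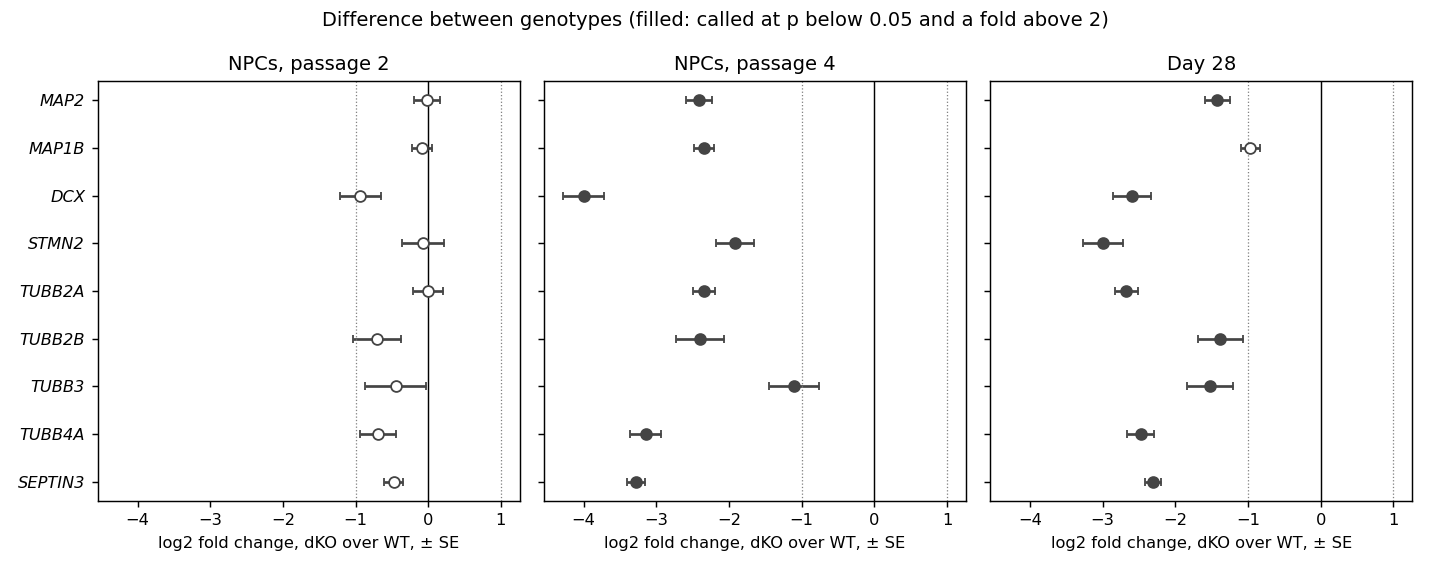
Log2 fold change of dKO over WT ± SE (edgeR, 2 samples a group) for the 9 genes at passage 2, at passage 4 and at day 28. Filled points were called, open points were not, and dotted lines mark a fold of 2. No gene was called at passage 2, 9 were lower in dKO at passage 4, and 8 at day 28.

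At passage 4 all 9 measured genes were lower in dKO than in WT NPCs, where 11.2% of all genes were called lower and 11.1% higher. The median over the 9 was -2.40, against 0.020 over all genes. DCX had 73.2 ± 4.75 CPM (SD, n = 2) in dKO and 1172 ± 162 CPM in WT, a log2 difference of -4.00 ± 0.28 (edgeR adjusted p = 3.11e-06). SEPTIN3 differed by -3.28 ± 0.12 (edgeR adjusted p = 1.59e-11) and TUBB4A by -3.15 ± 0.21 (edgeR adjusted p = 6.03e-09). MAP2 (-2.41 ± 0.18), TUBB2B (-2.40 ± 0.33), MAP1B (-2.35 ± 0.14) and TUBB2A (-2.34 ± 0.16) lay close together, and STMN2 followed at -1.92 ± 0.26, with edgeR adjusted p from 1.66e-09 (MAP1B) to 0.000584 (TUBB2B). TUBB3 differed by -1.10 ± 0.34 (edgeR adjusted p = 0.0204) and was no longer called without passage 4 WT sample 1 or without passage 4 dKO sample 2 (-0.98 in either case).

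With passage, genes of the set rose in WT and not in dKO NPCs. In WT NPCs 6 genes rose from passage 2 to passage 4, where 10.3% of all genes were called higher and 9.49% lower: MAP2 by 2.11 ± 0.18, SEPTIN3 by 1.99 ± 0.12, STMN2 by 1.96 ± 0.28, DCX by 1.76 ± 0.26, TUBB2A by 1.71 ± 0.18 and MAP1B by 1.18 ± 0.14, with edgeR adjusted p from 6.37e-09 (SEPTIN3) to 0.000749 (DCX). TUBB4A differed by 0.66 ± 0.21, TUBB2B by 0.37 ± 0.32 and TUBB3 by -0.20 ± 0.37, none of them called. In dKO NPCs none rose and 4 fell, where 4.61% of all genes were called higher and 5.22% lower: TUBB4A at -1.80 ± 0.26, TUBB2B at -1.32 ± 0.33, DCX at -1.30 ± 0.28 and MAP1B at -1.08 ± 0.14, with edgeR adjusted p from 5.58e-05 (MAP1B) to 0.0294 (TUBB2B). Without passage 4 dKO sample 1, MAP1B stood at -0.97 and was not called. The interaction of genotype and passage was called in 8 of the 9 genes and more negative in dKO in each, where 9.57% of all genes were called lower, and ranged from -1.69 ± 0.46 (TUBB2B, edgeR adjusted p = 0.0343) to -3.07 ± 0.38 (DCX, edgeR adjusted p = 0.000538). TUBB3, at -0.66 ± 0.54, was the exception.

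The comparisons share samples, so they are not independent of each other. Passage 4 and day 28 of WT cells, for which no test was fixed, can be set side by side. The mean of passage 4 WT NPCs was above that of WT-D28 for MAP1B (1.73-fold), DCX (1.69-fold), MAP2 (1.57-fold), TUBB2B (1.21-fold), TUBB2A (1.1-fold) and SEPTIN3 (1.06-fold). It was below for STMN2 (0.827-fold), TUBB3 (0.795-fold) and TUBB4A (0.725-fold). The samples of these 2 groups did not overlap for any of the 9, as was true in either direction of 78.0% of all genes, so the separation is no result about these genes. Over the 6 groups, STMN2, TUBB3 and TUBB4A had their highest means in WT-D28. MAP1B, DCX, MAP2, TUBB2B, TUBB2A and SEPTIN3 had theirs in passage 4 WT NPCs, which were still grown with bFGF and EGF.

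As a group of paralogs, the beta-tubulins differed in make-up between genotypes. Shares were computed per kilobase of all annotated exons, so their sizes depend on that length. They were taken over the beta-tubulins counted, of which TUBB, the beta-tubulin of most cells, was listed at 0 in every sample. TUBB lies in a run of 150 neighbouring protein-coding genes on chromosome 6 of which 119 were at 0 in all samples, so the shares leave it out. TUBB2B held 47.3% and 46.8% of the beta-tubulin signal in WT-D28 and 33.5% and 19.0% in dKO-D28. The share of TUBB2A was 16.6% and 17.7% in WT-D28 against 4.69% and 3.20% in dKO-D28, and that of TUBB4A 11.3% and 10.6% against 3.47% and 2.29%. TUBB4B, a broadly expressed beta-tubulin, took 19.1% and 19.2% in WT-D28 and 49.1% and 66.4% in dKO-D28. At passage 4 its share was 26.4% and 26.2% in WT and 55.5% and 55.1% in dKO NPCs, where its own level was 239 to 263 CPM in WT and 213 to 235 CPM in dKO (log2 difference -0.16 ± 0.12, edgeR adjusted p = 0.268). At day 28 TUBB4B was itself higher in dKO, at 265 and 336 CPM against 144 and 149 CPM (log2 difference 1.04, edgeR adjusted p = 1.66e-06). TUBB6, another beta-tubulin found outside the nervous system, held a larger share in dKO at each stage, with means of 13.8% against 6.03% at passage 2, 14.0% against 5.41% at passage 4 and 7.86% against 3.40% at day 28. At passage 2 it was the one beta-tubulin called between genotypes, at 167 and 194 CPM in dKO and 78.3 and 92.4 CPM in WT (log2 difference 1.06 ± 0.14, edgeR adjusted p = 0.00124), and it was not called at passage 4 (0.14) or day 28 (0.66). The share of TUBB2A at passage 2 was 6.01% ± 0.39 (SD, n = 2) in WT and 6.57% ± 0.52 in dKO.

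**Figure D4:**
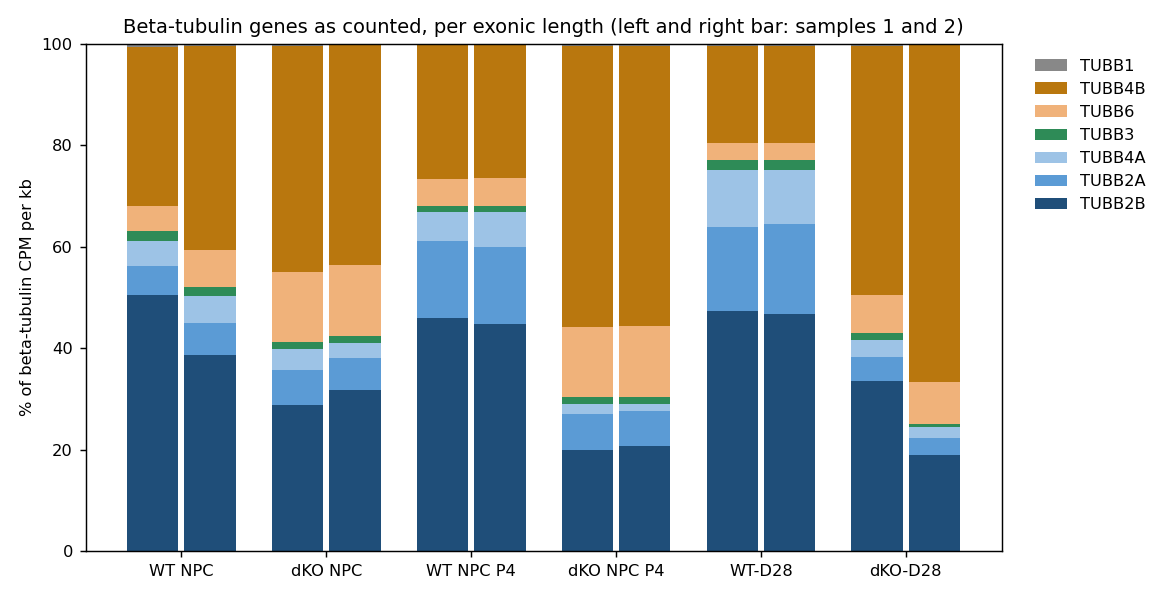
Share of each beta-tubulin gene in the summed CPM per kilobase of exon, in percent, for samples 1 and 2 (left and right bar) of each group. Blue shades are TUBB2B, TUBB2A and TUBB4A, green TUBB3, and orange shades TUBB4B and TUBB6, with TUBB at 0 in all samples. The blue shades fill most of the bars of WT-D28 and of passage 4 WT NPCs and less of the dKO bars of the same stages.

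Other genes of the microtubule system were read from lists. Among all genes, 12.9% were called higher and 11.5% lower in WT-D28 than in WT NPCs. Between genotypes at day 28, 11.7% were called lower and 12.4% higher in dKO. Of 3 other stathmins tested, 2 rose with WT differentiation, STMN3 by 1.21 and STMN4 by 2.22 on the log2 scale. These 2 were lower in dKO-D28 than in WT-D28, by -1.79 and -3.34, and the remaining stathmin was called in neither comparison. Of 37 tested microtubule-associated and plus-end proteins beyond the genes above, 10 rose and none fell in WT-D28, with a median of 0.56. MAPRE3, the neuronal end-binding protein, rose by 2.28 and DPYSL3, a collapsin response mediator, by 2.19. At day 28, 15 of the 37 were lower in dKO and 2 higher, with a median of -0.79. Of 29 tested transport motors and their adaptors, 7 rose and 1 fell in WT-D28, led by the dynein intermediate chain DYNC1I1 at 3.36 and the kinesin heavy chain KIF5A at 2.41, and 8 were lower and 2 higher in dKO-D28 than in WT-D28. DYNC1I1 was at or under the floor in passage 2 WT NPCs, with 0 and 2.24 CPM, so its fitted fold is no bound.

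The remaining lists were mixed or moved the other way. In WT-D28 the shares called among other tubulins, other septins and tubulin folding, modification and severing genes lay near those of all genes. Those were 12.9% higher and 11.5% lower, so these counts are no result about the lists. In dKO-D28 against WT-D28, 11.7% of all genes were called lower and 12.4% higher. The counts of other septins there are near these shares and are no result either. Of 9 other tubulins tested, 1 rose in WT-D28, the neuronal alpha-tubulin TUBA1A by 1.40, and 1 fell, TUBD1 by 1.17. TUBA1A was lower in dKO by -1.42 at day 28 and by -2.36 at passage 4. Of 10 other septins, SEPTIN5 rose by 1.58 and SEPTIN10 fell by 1.18 in WT-D28, and 1 was lower and 1 higher in dKO-D28. Of 30 genes for tubulin folding, modification and severing, 3 rose, among them the deacetylase SIRT2 by 1.28, and 4 fell, among them the severing protein FIGNL2 by 3.43. All 27 tested genes of the mitotic spindle fell in WT-D28, with a median of -2.04, and all 27 were higher in dKO-D28 than in WT-D28, with a median of 2.00. At passage 4, where the 9 neuronal genes were lower in dKO, 2 of the 27 spindle genes were lower and none higher, with a median of -0.33. Of all genes, 11.2% were called lower and 11.1% higher in dKO at passage 4, so this count is no result about the spindle list.

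**Figure D5:**
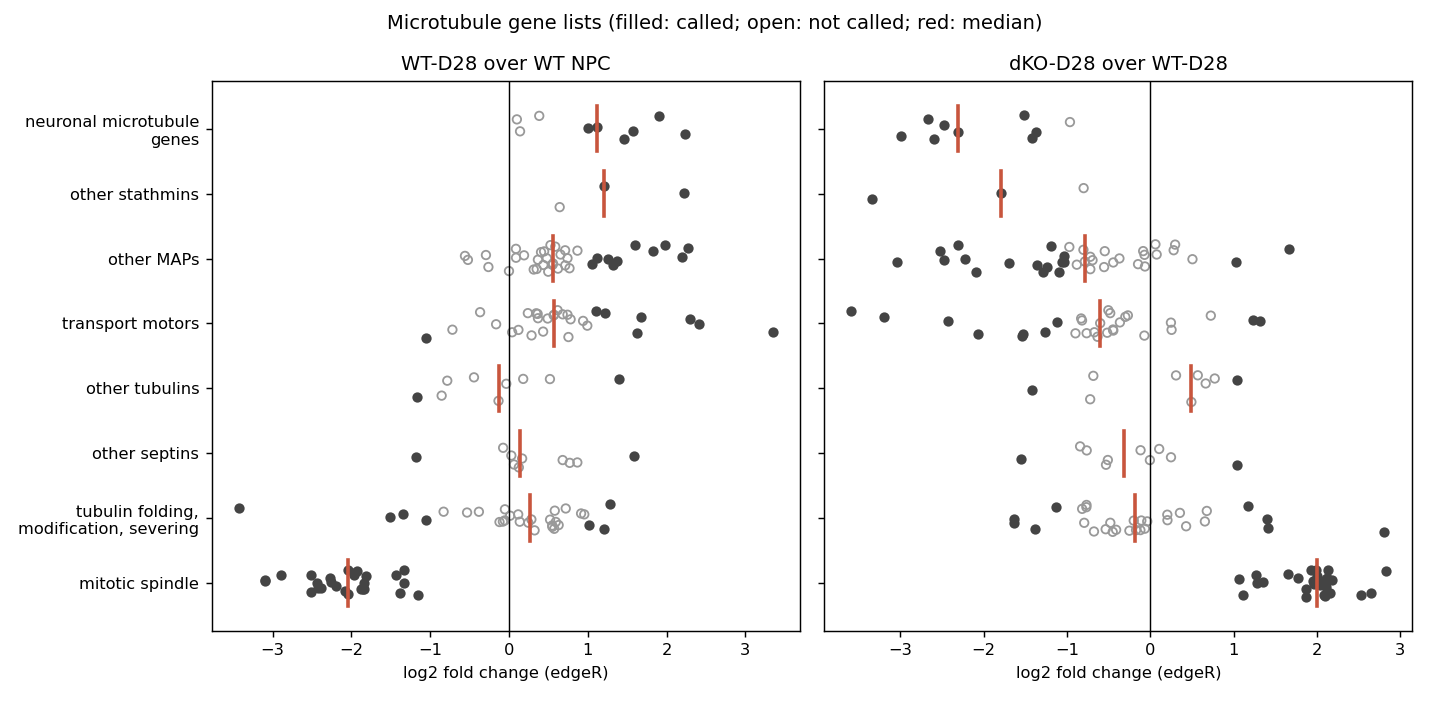
Log2 fold changes (edgeR) of the genes of 8 microtubule lists in WT-D28 over WT NPCs on the left and dKO-D28 over WT-D28 on the right. Filled points were called, open points were not, and the red line is the list's median. Medians of the neuronal microtubule genes are 1.12 and -2.31, and those of the mitotic spindle -2.04 and 2.00.

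Most markers of neurons moved with the neuronal microtubule genes. Among all genes, 12.9% were called higher in WT-D28 than in WT NPCs. In dKO against WT, 11.7% were called lower at day 28 and 11.2% at passage 4. Of 11 tested neuron markers, none of them among the 10 genes, 9 rose in WT-D28, 9 were lower in dKO-D28 than in WT-D28, and at passage 4 9 were lower and 1 higher in dKO. Their summed level was 749 to 848 CPM in passage 2 WT NPCs, 664 to 668 CPM in passage 2 dKO NPCs, 2148 to 2273 CPM in passage 4 WT NPCs, 741 to 749.8 CPM in passage 4 dKO NPCs, 2473 to 2500 CPM in WT-D28 and 336 to 835 CPM in dKO-D28. ELAVL3, a neuronal RNA-binding protein, measured 376 and 355 CPM in WT-D28 and 76.8 and 31.1 CPM in dKO-D28. The neurofilament genes NEFL and NEFM were the 2 that did not rise. Their log2 fold changes in WT-D28 were -0.98 and -1.15 (edgeR adjusted p = 0.228 and 0.16), and their interactions of genotype and passage, neither called, were 1.10 and 1.20. NEFM was the marker higher in dKO at passage 4, by 1.29 (edgeR adjusted p = 0.0883).

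Markers of other cell types moved as well. Among all genes, 2.59% were called higher in dKO at passage 2, 11.1% at passage 4 and 12.4% at day 28. Those called lower in dKO were 1.83%, 11.2% and 11.7% at these stages, and 12.9% were called higher in WT-D28 than in WT NPCs. All 5 tested astrocyte markers of 8 listed rose in WT-D28 and were lower in dKO at passage 4 and day 28, and SLC1A3, a glutamate transporter, was lower in dKO already at passage 2, by -1.83 on the log2 scale (edgeR adjusted p = 0.00124). The filter is a mean over all 12 samples, so a marker nearly absent elsewhere can pass it through its high WT groups. For such a marker the filter itself favours these directions. Between genotypes at passage 2, AQP4 stood at -4.00 ± 2.51 and S100B at 0 ± 0, which are no usable estimates. The sum of the astrocyte markers was 105 to 136 CPM in passage 2 WT NPCs and 35.4 to 53.3 CPM in passage 2 dKO NPCs, 2019 to 2235 CPM in passage 4 WT NPCs, 418 to 421 CPM in WT-D28 and 34.2 to 42.4 CPM in the later dKO groups. GFAP, their defining marker, reached 23.6 CPM at most. Of 7 tested mesenchyme and neural crest markers, 4 were higher in dKO at passage 2 and at passage 4. At day 28, 5 were higher and 1 lower. No transcription factor of that list was called at passage 2. A marker nearly absent elsewhere can also pass the filter through its high dKO groups, which favours a higher value in dKO. The sums at these stages were 858 to 1039, 1745 to 1759 and 345 to 409 CPM in the dKO groups, against 116 to 376 CPM in the WT groups. COL1A1 measured 512 and 526 CPM in passage 4 dKO NPCs and 21.1 and 28.0 CPM in their WT counterparts. MKI67, a marker of dividing cells, measured 110 and 116 CPM in WT-D28 and 414 and 567 CPM in dKO-D28. Of 5 pluripotency markers 1 was tested, LIN28A, an RNA-binding protein of pluripotent and early neural cells, and in both WT changes and between genotypes at passage 4 and day 28 it moved opposite to the microtubule genes called there. LIN28A measured 79.9 to 87.5 CPM in the 4 passage 2 samples, 1.00 and 0.514 CPM in passage 4 WT NPCs (at or under the floor), 31.4 and 33.8 CPM in passage 4 dKO NPCs, 0.840 and 0.604 CPM in WT-D28 and 32.2 and 80.3 CPM in dKO-D28. Its fitted log2 difference between genotypes was 6.26 at day 28 (edgeR adjusted p = 2.66e-06). The sum of the 5 was 46.3 to 86.5 CPM in dKO-D28 and 0.604 to 0.960 CPM in WT-D28. POU5F1 was listed at 0 in every sample but lies in the same empty run of chromosome 6 as TUBB, so it checks nothing. The part of these other cells in the levels of the microtubule genes was not tested.

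Over the 12 samples, the genes with the pattern most like each microtubule gene were found by Pearson's r of log2(CPM + 1), given as a description because the samples form 6 groups and share their line. STMN2 was closest to GAP43, the growth cone protein, with r of 0.997, followed by INA, the neuronal intermediate filament alpha-internexin, with 0.987. MAP2 was closest to SNCB, encoding beta-synuclein, with 0.988, and DCX to ATL1 and to the astrocytic gene MLC1 with 0.991 each. SEPTIN3 was closest to the astrocytic glutamate transporter SLC1A2 and to PLPP3, with 0.990 each. TUBB2A was closest to the kinesin adaptor KIFAP3 with 0.985, TUBB4A to the neuronal splicing factor SRRM4 with 0.983, MAP1B to LIMCH1 with 0.983 and TUBB2B to ZNF566 with 0.985. TUBB3 had the weakest best match, SLC25A42 with 0.947. Among the 9 genes themselves, r ran from 0.566 between MAP2 and TUBB3 to 0.965 between STMN2 and TUBB2A.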

How the data were processed

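Sample groups and replicate numbers were taken from the sample labels. The authors made TruSeq libraries from TRIzol RNA for NextSeq sequencing, aligned reads to hg38 with HISAT2 2.0.4, processed them with SAMtools 1.3.1 and counted them with htseq-count (HTSeq 0.6.0). The deposited values are raw counts per Ensembl gene for each sample, without filtering or normalization, for 58302 genes. The annotation release, strand setting and read length are not given in the sources used here. Of these genes, 57532 (98.7%, holding 99.8% of the counts) were found in GENCODE 44, which gave symbols, hg38 coordinates, exon length and GC content.

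Counts were analysed in R 4.3.3 with edgeR 4.0.16, using TMM factors, 6 group means, a robust quasi-likelihood fit to all 12 samples with genes averaging 20 counts or more. Calls used an unadjusted p below 0.05 and a fold above 2, as in the study's methods, with Benjamini-Hochberg adjustment over the 13454 genes tested. The SE is the log2 fold change divided by the square root of F. The fit was tested on simulated data with known changes. Genes were named by rule: the 10 genes and the targeted genes, in each other list at most 2 rises and 2 falls in WT-D28, fixed markers, and the genes most alike in pattern. TUBB4B, TUBB6 and TUBB (beta-tubulin make-up), NEFL and NEFM (neuron markers not called) and SLC1A3 were named beyond that rule, after their values were seen. The genes and lists were chosen with earlier results of these data known. Alternatives were DESeq2 1.42.0, calls on adjusted p-values, fits restricted to the groups compared, no filter, a lowess correction for GC content and length, the replicate number as a block, both together, leaving out each sample, CPM from total counts and, chosen after seeing the data, thinning to the smallest total. Whether samples of the same number deviate together from their group means was checked over 15 pairs of groups, where the correlation averaged 0.017 (-0.058 to 0.19).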

Additional observations from a re-analysis of the deposited data

Results flagged for a closer look

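Differentiation changed 6 of the 9 measured genes differently in the 2 genotypes, by a test of the interaction itself. The log2 change in dKO minus that in WT was -1.40 for MAP2, -1.67 for DCX, -2.92 for STMN2, -2.67 for TUBB2A, -1.78 for TUBB4A and -1.83 for SEPTIN3. Passage changed 8 of the 9 differently by the same kind of test, with -2.39 for MAP2, -3.07 for DCX, -2.26 for MAP1B, -1.85 for STMN2, -2.34 for TUBB2A, -1.69 for TUBB2B, -2.46 for TUBB4A and -2.80 for SEPTIN3. By comparison, 11.1% of all 13454 genes were called lower in the interaction with differentiation and 9.57% in that with passage. Both interactions use the same 4 passage 2 samples, which had the lowest totals.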

How the results depend on the processing

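The log2 fold changes of the 9 genes in the 9 comparisons kept their direction and their side of the threshold in 623 of the 648 values computed under the alternatives that kept all samples, and in 938 of 972 that left out 1 sample. The direction turned only for values that were not called. With the correction for GC content and length, MAP2 stood at 0.050 in dKO against WT NPCs and at -0.0045 in dKO-D28 against dKO NPCs, and TUBB3 at -0.020 in WT-D28 against WT NPCs. With the replicate block and that correction these were 0.045, -0.015 and -0.025. After thinning, STMN2 and TUBB2A stood at 0.010 and 0.032 in dKO against WT NPCs, and without a filter TUBB2A stood at 0.013. Leaving out a sample gave, in dKO against WT NPCs, -0.093 to 0.053 for MAP2, -0.20 to 0.053 for STMN2 and -0.11 to 0.079 for TUBB2A. It gave -0.34 to 0.37 for MAP2 and -0.035 to 0.17 for SEPTIN3 in dKO-D28 against dKO NPCs, and -0.22 to 0.48 for TUBB2B and -0.082 to 0.32 for TUBB3 in WT-D28 against WT NPCs.

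Thinning every sample to the smallest total raised the genes called in dKO against WT NPCs from 0 to 1 (DCX at -1.01) and in dKO-D28 against dKO NPCs from 1 to 2 (TUBB3 at -1.57), and the cause was not tested. Leaving out a sample gave 0 to 2 and 0 to 6 for these counts. Of all genes, the calls in dKO against WT NPCs were 595, and 199 with adjusted p-values, 1177 without a filter and 927 without passage 2 WT sample 2. Without a filter the calls rose by over 1.5 times in 6 further comparisons, to between 2684 and 6037. More genes entered that fit, and the cause of the rise was not tested. Samples of the same replicate number deviated together little, with a mean correlation of 0.017 over pairs of groups. It was highest, at 0.19, between the 2 passage 4 groups. The labels do not say whether samples were paired. With the replicate number as a block, TUBB3 was called in the interaction of genotype and differentiation at -1.10 (unadjusted p = 0.0407), and no other gene's call changed. CPM from total counts moved by more than the spread between replicates in 30 of 108 values. Depth limits the passage 2 NPCs most.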
